A study of Mus musculus with 6 samples.

Results

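Cav1, Cav2 and Met are 3 protein-coding genes that lie side by side on mouse chromosome 6. They were taken by name from a table of 53509 gene rows, so the members are 3 of 53509. The libraries were made from total RNA of C57BL/6 mice with a TruSeq kit. The study holds 3 libraries labelled wild type (control 1 to 3) and 3 labelled with myocardial ischemia-reperfusion injury (MIRI 1 to 3), in which blood flow to heart muscle is blocked and then restored, and the design text gives an age of 21 days. The labels named no agent, and the sources used here do not give sex or the time after injury. Whether each library came from its own animal was not stated either, so the p-values below speak to the spread between these libraries, which may be technical. File names called the MIRI libraries mutant, so genotype and injury cannot be told apart.

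Caveolins are membrane proteins that build caveolae, small flask-shaped pits of the plasma membrane. Cav1 encodes caveolin-1, the structural core of caveolae outside striated muscle, and Cav2 encodes caveolin-2, which forms mixed oligomers with caveolin-1 and depends on it for stable transport to the surface. Both are abundant in endothelium, fat cells, fibroblasts and smooth muscle. Met encodes the receptor tyrosine kinase for hepatocyte growth factor (HGF). HGF is made mainly by mesenchymal cells, and the receptor drives growth, movement and branching of epithelial and other cells.

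Most row names of this table do not match the gene at their coordinates, so the 3 rows were checked first. In the coordinates of the files, Cav2 (ENSMUSG00000000058.6) runs from 17281184 to 17289114, Cav1 (ENSMUSG00000007655.16) from 17306334 to 17341451 and Met (ENSMUSG00000009376.15) from 17463799 to 17573979, all on the plus strand of chromosome 6. GENCODE M21 on GRCm38 gives starts and ends that differ by -1 bp in each of the 6 comparisons. The rows hold 3335, 3444 and 7679 bp, equal to the exon lengths of the annotated genes. Of these bases, 99.9%, 99.8% and 99.7% lie on exons of the gene named. No other row was assigned to any of the 3 genes by position, so the names hold and each gene is measured over nearly all of its exon length, as 1 of 1662 rows in place. Isoforms and start sites of a gene were counted together. The antisense gene Gm15581 spans Cav2 and Cav1 on the other strand with no exon on theirs, and its row held at most 2 counts in a library.

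The stretches before the start sites are shown because these neighbours are set side by side below. They come from RefSeq on GRCm38.p6, plus strand, 5′ to 3′, up to the first annotated exon base. Capitals mark 4 motifs searched on both strands, so that a match on the other strand is printed as its reverse complement: GGGCGG (a GC box), TGANTCA (the site bound by AP-1 factors), CCAAT and TATAAA. They do not overlap each other here.
Cav2 (chr6:17280935-17281184): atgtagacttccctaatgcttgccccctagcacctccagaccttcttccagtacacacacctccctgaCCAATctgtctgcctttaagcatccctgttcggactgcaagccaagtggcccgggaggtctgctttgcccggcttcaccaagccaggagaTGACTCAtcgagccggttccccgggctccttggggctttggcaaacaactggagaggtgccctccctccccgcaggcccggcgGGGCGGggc
Cav1, first start (chr6:17306085-17306334): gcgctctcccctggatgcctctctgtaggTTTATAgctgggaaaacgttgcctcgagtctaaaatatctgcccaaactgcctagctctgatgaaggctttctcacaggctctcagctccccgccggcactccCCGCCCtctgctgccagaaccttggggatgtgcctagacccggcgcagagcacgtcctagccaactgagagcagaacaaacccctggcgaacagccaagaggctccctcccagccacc
Cav1, second start (chr6:17307390-17307639): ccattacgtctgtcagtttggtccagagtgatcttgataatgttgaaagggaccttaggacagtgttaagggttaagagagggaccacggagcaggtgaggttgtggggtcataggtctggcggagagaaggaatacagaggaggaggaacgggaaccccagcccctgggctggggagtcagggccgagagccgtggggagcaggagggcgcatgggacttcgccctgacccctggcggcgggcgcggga
Met (chr6:17463707-17463799): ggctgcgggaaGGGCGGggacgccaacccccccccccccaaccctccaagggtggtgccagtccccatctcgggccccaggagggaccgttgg
Met, a site after the first annotated exon base (chr6:17463895-17463917): tgcccggcTGAGTCAcgggccgg

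TGANTCA stood 92 bases before the Cav2 start and 54 bases before the RefSeq start of Met, and in neither window of Cav1. It occurred in 6.75% of the 32851 RefSeq promoters over the same 250 bases. GGGCGG occurred 1 time before Cav2, 1 time before the first Cav1 start and 0 times before the second. It occurred 3 times before the RefSeq start of Met, and in 32.7% of promoters. Of those of Met, only the site 239 bases before that start lies in the stretch printed above. CCAAT (33.8% of promoters) was found only before Cav2 among these 4 windows, and TATAAA (12.4%) only before the first Cav1 start. The Met window, the 250 bases before its RefSeq start, had 74% G and C and 24 CG pairs. It extends past the 93 bases printed, beyond the first annotated exon base, so these values are not those of the printed stretch. The Cav2 window had 62% and 10, and the Cav1 windows 59.6% and 60.8% with 10 and 12, beside medians of 52.4% and 6 over all promoters. These matches describe letters in a window, and binding was not measured.

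Total counts ran from 6859481 to 9250952 per library, and levels below are in CPM, the count for each 1000000 counts of that total. The first principal component of all tested rows held 33.9% of the variance. It set control 2 (score 37.3) and MIRI 1 (33.9) apart from the other 4 libraries (-29.4 to -7.24), across the groups and not along them. The second component held 26.3% of the variance and did follow the groups, with scores of -30.7 to -8.86 in the controls and 14.5 to 32.5 in MIRI. Fibroblast genes were abundant in sum: 9 of 12 listed markers had a row by position, and they summed to 54954 to 66828 CPM in the controls and 55938 to 72550 CPM in MIRI. Most of this came from the matrix genes Fn1, Col1a2 and Col1a1 (means of 35291, 13405 and 8798 CPM over the 6 libraries). Dcn and Fap were low, at means of 22.4 and 33.7 CPM. The tissue labels conflict (retina, intervertebral disc, heart muscle), and the measured markers of each were low. The 4 measured muscle markers of 12 summed to 0.813 to 2.48 CPM over the 6 libraries with Myh6, the cardiac myosin chain, at 0 in each, the 3 retina markers of 8 to 10.3 to 22.3 CPM, and the 2 disc and cartilage markers of 8 to 0 to 1.92 CPM. Acan, the cartilage proteoglycan, was at 0 in each MIRI library.

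Cav1 was an abundant transcript in every library and had a lower mean in MIRI, a difference that did not pass the test over all rows. It stood at 1951, 2436 and 1404 CPM in controls 1 to 3, and at 1369, 1342 and 1567 CPM in MIRI 1 to 3. Controls 1 and 2 lay above every MIRI library, while control 3 lay among them, below MIRI 3, so the groups overlapped. The means were 1930 ± 516 CPM (SD, n = 3) in the controls and 1426 ± 123 CPM in MIRI, which is 26.1% lower.

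The fitted log2 fold change of Cav1 was -0.42 ± 0.18 (SE) by edgeR's quasi-likelihood test, with an unadjusted p of 0.0445 and an adjusted p of 1.0. Cav1 was thus 1 of the 429 rows of 15777 with an unadjusted p under 0.05 in the lower direction, a background of 2.72% of rows. By adjusted p edgeR called 0.0% of rows, in either direction. At an unadjusted p under 0.05 it found 4.34%, with 1.62% higher, and the DESeq2 test called 85 rows, without any of the 3 genes.

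The size of the Cav1 difference rested on control 2, the library with the highest Cav1 level. Without it the log2 fold change was -0.24 ± 0.16 (unadjusted p = 0.165 by edgeR), and without control 3, the lowest control, it was -0.59 ± 0.15 (unadjusted p = 0.00426, adjusted p = 0.608). With both control 2 and MIRI 1 left out, an alternative chosen after the data were seen, it was -0.18 ± 0.15.

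Counting error was small beside these spreads. The widest exact 95% Poisson interval of a Cav1 value was ± 2.05% of it, for Cav2 ± 5.05% and for Met ± 5.66%, which covers counting error only. The coefficient of variation of Cav1 was 26.7% over controls and 8.61% over MIRI. For Cav2 it was 18.0% and 10.96%, and for Met 42.6% and 35.1%.

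Cav2 did not differ detectably between the groups. Its levels were 243, 344 and 275 CPM in controls 1 to 3, against 248, 222 and 277 CPM in the MIRI libraries. Control 2 was the highest, and control 1 and control 3 fell within the range of the MIRI libraries. The means were 287 ± 51.6 CPM in the controls and 249 ± 27.3 CPM in MIRI (SD, n = 3). The log2 fold change was -0.20 ± 0.14 (edgeR, unadjusted p = 0.206, adjusted p = 1.0). It was -0.07 without control 2, and -0.04 with both control 2 and MIRI 1 left out.

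Met showed the widest range of the 3 genes, and its high libraries were 1 of each group. It stood at 229, 369 and 158 CPM in controls 1 to 3, and at 327, 177 and 195 CPM in MIRI 1 to 3, a 2.34-fold range over the libraries. Control 2 and MIRI 1 were high, and the other 4 libraries lay between 158 and 229 CPM. The means were 252 ± 107 CPM in the controls and 233 ± 81.7 CPM in MIRI (SD, n = 3), with a log2 fold change of -0.11 ± 0.29 (edgeR, unadjusted p = 0.718, adjusted p = 1.0). The sign turned when control 2 was left out (0.25 ± 0.25) or MIRI 2 was left out (0.04 ± 0.32).

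**Figure D1:**
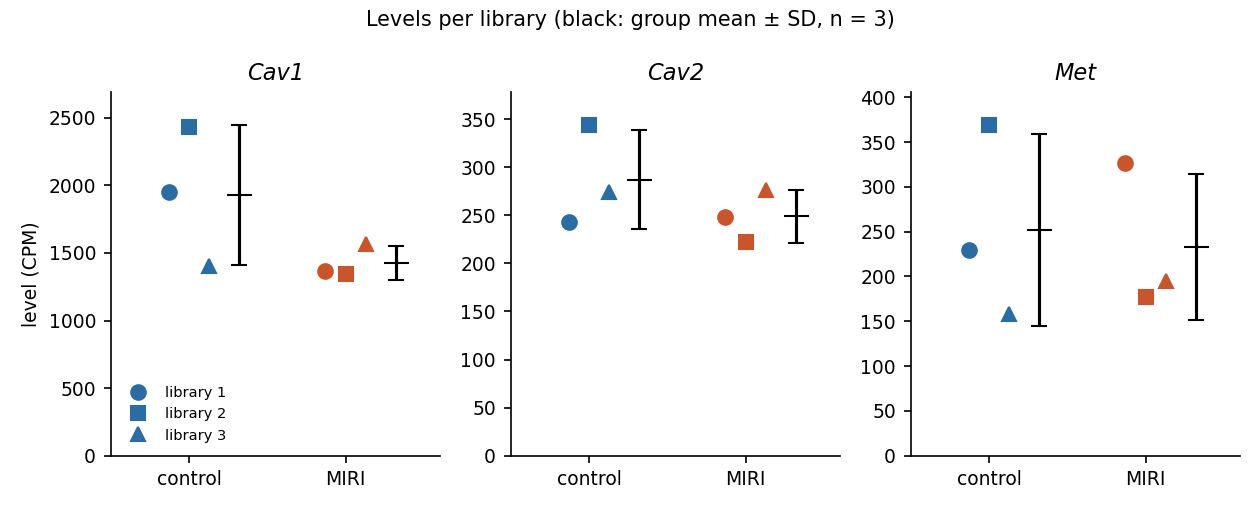
Level of Cav1, Cav2 and Met in each library (vertical axis, CPM, starting at 0; circles, squares and triangles are libraries 1, 2 and 3 of each group, blue for control and orange for MIRI; black bars are the group mean ± SD, n = 3). Control 3 falls among the MIRI libraries for Cav1, and for Met control 2 and MIRI 1 stand above the other 4 libraries.

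Per length, the order of the genes was the same in every library. Cav1 had a mean of 487 CPM per kb of exon, Cav2 80.4 and Met 31.6. Among the 1662 rows in place these were ranks 3, 47 and 129 from the top. Rows in place are 3.11% of all rows and hold 8.55% of the counts, so these ranks give no place among all genes. The lowest Cav1 value (390 CPM per kb, MIRI 2) was above the highest of Cav2 (103, control 2), and the lowest of Cav2 (66.6, MIRI 2) above the highest of Met (48.1, control 2), so the ranges of neighbouring genes in this order did not meet.

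The balance of the caveolins does not depend on library depth. There were 8.03, 7.08 and 5.11 Cav1 counts for each Cav2 count in controls 1 to 3, against 5.52, 6.04 and 5.66 in the MIRI libraries. Control 1 and control 2 were above all MIRI libraries and control 3 below them. The mean log2 ratio differed by -0.21 (exact permutation test, two-sided, p = 0.4, where 3 against 3 libraries allow no p below 0.1). Met counts per Cav1 count were 0.118, 0.151 and 0.112 in the controls and 0.239, 0.132 and 0.125 in MIRI, with MIRI 1 the highest. That log2 ratio differed by 0.32 (exact permutation p = 0.5, two-sided). Over the 2 ratios tested, the Benjamini-Hochberg adjusted value was 0.5 for each.

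The order of libraries differed between Met and the caveolins. On the log2 CPM scale Met had a Pearson r of 0.95 with the scores of the first principal component over the 6 libraries, and Cav1 and Cav2 had 0.38 and 0.37. Cav1 and Cav2 had an r of 0.67 with each other, Cav1 and Met 0.51, and Cav2 and Met 0.32. These are descriptions of 6 points that share depth and library preparation, and Met is itself 1 of the rows behind the component. In MIRI 1 Met was the highest of its group, while Cav1 was close to its lowest.

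**Figure D2:**
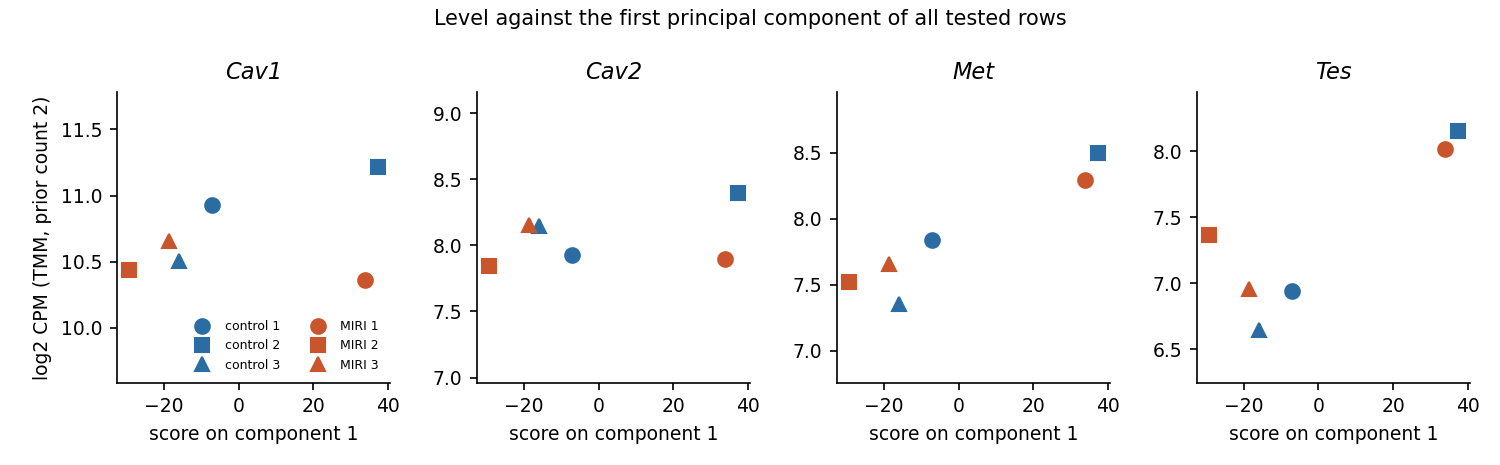
Level of Cav1, Cav2, Met and the neighbouring gene Tes (vertical axis, log2 CPM after TMM scaling with a prior count of 2) against the library's score on the first principal component of all tested rows (horizontal axis, no unit); each point is 1 library, blue for control and orange for MIRI. Met and Tes are highest in control 2 and MIRI 1, at the right of each panel, while Cav1 is highest in control 2 and lowest in MIRI 1.

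The genes most like each member in pattern were taken from 4056 others with a mean of at least 10 CPM, named by position. For Cav1 they were 2610001J05Rik (r = 0.99), 1110059E24Rik (0.98), Lrrc42 (0.97), Scmh1 (0.97) and Hk1 (0.97), the last a hexokinase that starts glycolysis. 2610001J05Rik, whose row is in place, stood at 93, 105 and 84.5 CPM in the controls and 84.6, 82.2 and 86.4 CPM in MIRI, a flatter course than that of Cav1. For Cav2 they were Bicra (0.98), Vps16 (0.98), Ppp2r2d (0.95), Usp45 (0.95) and Mllt1 (0.94).

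For Met the 5 were Prpf31 (r = 0.997), Hint1 (0.996), Pcnt (0.996), Khsrp (0.99) and Hmgn2 (0.99). Rows named by position covered as little as 84 exon bp for Prpf31 and 143 for Hmgn2. Prpf31 encodes a splicing factor, Pcnt a centrosome scaffold, Khsrp an RNA-binding protein and Hmgn2 a nucleosome-binding protein. Hmgn2 stood at 49.8, 73.2 and 36.9 CPM in the controls and 64.7, 38 and 45.8 CPM in MIRI, with the same 2 libraries at the top as Met. With 6 libraries and 4056 genes, high r values are found by choice, and no test was made of them.

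Among the neighbours on chromosome 6, from 14 to 22 Mb, 73 of 75 rows were in place and 24 were tested, 21 of them other than Cav1, Cav2 and Met. None passed over all rows. The median log2 fold change of the 21 was 0.01, beside 0.01 over all 15777 rows. Of them 10 were lower, beside 47.5% of all rows tested. In 1 of them the groups did not overlap, beside a background of 8.81% of rows without overlap (5.18% lower and 3.63% higher). That row, Cftr, passed the filter for low counts only by its control levels.

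The nearest protein-coding genes on either side did not share the Cav1 difference in means. Tes, a focal adhesion protein upstream of Cav2, was at 170 ± 105 CPM in the controls and 183 ± 77.8 in MIRI (SD, n = 3). Its libraries were at 123, 291 and 96.6 CPM in the controls and at 270, 159 and 121 CPM in MIRI, with the same 2 libraries high as for Met (r of 0.90 with Met on the log2 CPM scale). Capza2, an actin-capping subunit downstream of Met, was at 610 ± 20.9 and 601 ± 4.69 CPM, and had an r of -0.95 with Met over a narrow range. St7 was at 67.1 ± 3.16 and 67.9 ± 2.49 CPM. The differences between these genes and the members were not tested.

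Farther out, Foxp2 and Mdfic, encoding transcriptional regulators, had log2 fold changes of 0.07 ± 0.27 and 0.23 ± 0.14, and Tfec, a transcription factor, 0.13 ± 0.34. Lsm8, an RNA-binding subunit, was at 0.06 ± 0.14, Tspan12, a tetraspanin, at -0.15 ± 0.27 and Ing3 at -0.02 ± 0.15. The rows Gm43924, Gm43533, Gm4876 and Gm20186 lay between -0.30 and 0.27. Gm4876 shares the span of Tes on the other strand, and the counting used no strand.

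Wnt2, a secreted signalling protein, was high in 1 library. It stood at 37.4, 12.9 and 5.08 CPM in the controls and 6.05, 4.81 and 9.62 CPM in MIRI, with a log2 fold change of -1.40 ± 0.63 (edgeR, adjusted p = 1.0) that became -0.36 without control 1. Cftr, a chloride channel of epithelia, was scarce, at 1.49, 5.2 and 4.76 CPM in the controls and 0.807, 0.292 and 0.271 CPM in MIRI. Its groups did not overlap, and its log2 fold change of -3.02 ± 0.62 had the smallest p of the neighbours without passing (unadjusted p = 0.000939, adjusted p = 0.235 by edgeR). Cftr passed the filter for low counts only by its control levels, so its direction, lack of overlap and p are no independent support for a difference.

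**Figure D3:**
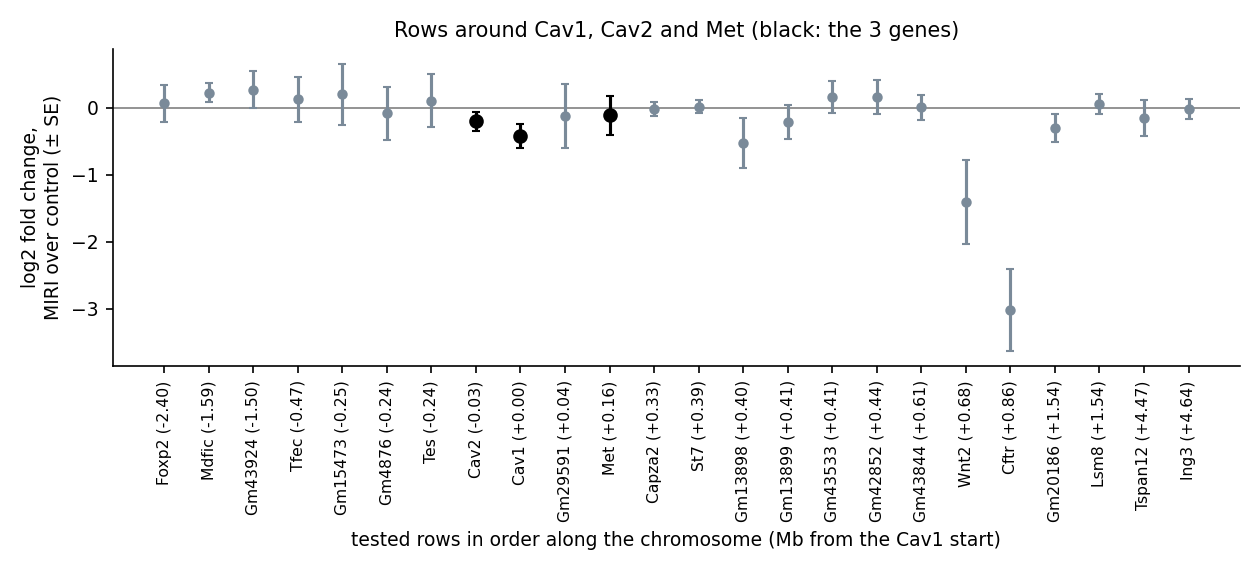
Log2 fold change of MIRI over control with its SE (vertical axis) for the 24 tested rows around the Cav1 start, in chromosome order (horizontal axis, with the distance from the Cav1 start in Mb). Cav1, Cav2 and Met in black lie between -0.42 and -0.11, Capza2 and St7 lie near 0, and Wnt2 and Cftr lie lowest.

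Other caveola genes were looked up by the position of rows, since most row names cannot be used. Of 23 listed genes, Cav1 and Cav2 included, 14 had a row and 13 were tested, mostly over part of their exons. The edgeR fit of 5912 genes by position called 0.0% of genes in either direction (4.6% at an unadjusted p under 0.05, 2.96% lower and 1.64% higher), and 0 of the 13. Of the 13, 4 were higher and 9 lower, with a median log2 fold change of -0.07, beside 0.01 and 47.3% lower over all genes tested. For the 11 other than Cav1 and Cav2 the median was -0.04, with 7 lower.

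The cavins are cytosolic proteins that coat caveolae together with caveolin-1. Cavin1, the coat protein without which caveolae do not form, stood at 481, 434 and 444 CPM in the controls and 422, 444 and 451 CPM in MIRI (log2 fold change -0.04 ± 0.10), from a row covering 397 of 3587 exon bp. Cavin3 had -0.15 ± 0.13. Cavin4, the muscle cavin, in place, was at 1.61 to 5.83 CPM in the 6 libraries. Cavin1 thus varied by less than Cav1 over the same libraries, a difference that was not tested.

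Among proteins that bend or cut the caveolar neck, Pacsin2 had 0.05 ± 0.09, Ehd1 0.04 ± 0.13 and Dnm2, the dynamin that severs membrane necks, -0.07 ± 0.11. Ehd4, an ATPase of the same family as Ehd1, was the 1 gene of the list with an unadjusted p under 0.05 in this fit, where that of Cav1 was 0.0557. It was at 33.7, 45.6 and 41.2 CPM in the controls and 26.8, 29.2 and 32.4 CPM in MIRI, with groups that did not overlap (background 8.93% of genes), in a row covering 165 of 4007 exon bp. Its log2 fold change was -0.44 ± 0.15 (edgeR, unadjusted p = 0.021, adjusted p = 0.922). The flotillins, which mark other membrane domains, had 0.01 ± 0.15 (Flot1) and -0.01 ± 0.14 (Flot2), and the kinase Fyn -0.13 ± 0.19.

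Of 41 genes listed for HGF and its receptor, Met included, 20 had a row by position and 17 were tested, mostly over part of their exons. The test called 0, beside 0.0% of all genes tested by position. Of the 17, 6 were higher and 11 lower, with a median log2 fold change of -0.03, beside 0.01 and 47.3% lower over all genes tested. For the 16 other than Met the median was -0.02, with 10 lower.

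The ligand Hgf was high in 1 MIRI library. It stood at 43.5, 39.4 and 22.2 CPM in the controls and 183, 22.6 and 62.6 CPM in MIRI, with a log2 fold change of 1.34 ± 0.63 (edgeR, adjusted p = 1.0). MIRI 1 was thus high for both the ligand and the receptor, while control 2, with the highest Met level, had an Hgf level between those of the other controls. Row coverage of Hgf was 497 of 7186 exon bp.

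Partners of Met at the cell surface were Cd44, a hyaluronan receptor, at 94.8, 133 and 69.1 CPM in the controls and 148, 96.2 and 71.9 CPM in MIRI, and Plxnb1, a semaphorin receptor, at 10.3, 17 and 8.5 CPM and 28.5, 12.2 and 11.2 CPM. In both, control 2 and MIRI 1 were the 2 highest libraries, as for Met, and their log2 fold changes were 0.10 ± 0.28 and 0.54 ± 0.38. Itga6 had -0.20 ± 0.30. Its partner Itgb4, an integrin chain of epithelia, had an unadjusted p of 0.023 (log2 fold change -1.59 ± 0.57, adjusted p = 0.922 by edgeR). Itgb4 levels were 2.3, 10.4 and 4.97 CPM in the controls and 2.42, 1.02 and 2.3 CPM in MIRI, so the groups overlapped. With MIRI 2 at 1.02 CPM, Itgb4 passed the filter for low counts only by its control levels. Its direction and p are thus no independent support for a difference.

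The measured genes that carry the signal inward lay close to 0, over part of their exons (209 of 9527 exon bp for Stat3 and 100 of 9088 for Pik3ca). Others of the list, such as Gab1, Grb2 and Ptpn11, had no row. Shc1 and Sos1, adaptors toward Ras, had -0.10 ± 0.10 and -0.08 ± 0.14. Cbl, the ubiquitin ligase that removes active Met, had -0.01 ± 0.09 and Stat3 -0.10 ± 0.10. The subunits Pik3r1 and Pik3ca of phosphoinositide 3-kinase had -0.01 ± 0.19 and -0.12 ± 0.14, Rapgef1 -0.03 ± 0.12 and the protease Adam17 -0.03 ± 0.12. Lrig1, an inhibitor of growth factor receptors, had 0.31 ± 0.18, and Etv4 and Etv5, transcription factors downstream of such receptors, 0.34 ± 0.24 and 0.19 ± 0.12. None of these passed.

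**Figure D4:**
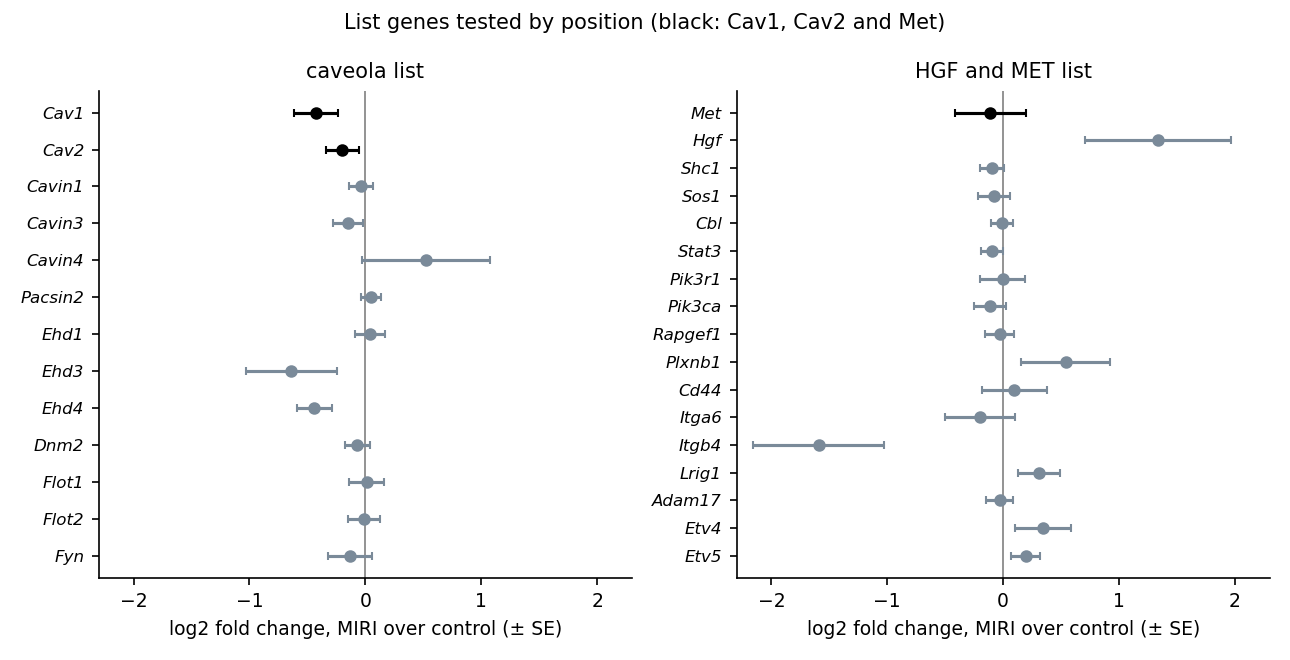
Log2 fold change of MIRI over control with its SE (horizontal axis) for the 13 caveola genes and the 17 HGF and MET genes tested by position (vertical axis), with Cav1, Cav2 and Met in black. Most genes lie near 0 with Ehd3, Ehd4 and Cav1 lowest at left, and Hgf highest and Itgb4 lowest at right.

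Markers of endothelium, a cell type rich in caveolin-1, had a lower summed level in each MIRI library than in any control, and none passed the edgeR test by adjusted p. Of 21 listed markers, 10 had a row by position, and all 9 that were tested had a lower mean, beside 47.3% of all genes tested. Of the 10, 7 were lower with groups that did not overlap (background 5.48% of genes). Ets1 was higher without overlap (background 3.45%) at 1.35 CPM or less, and was not tested, while the backgrounds cover tested genes only. Emcn, Robo4, Tie1 and Vwf passed the filter for low counts only by their control levels. Their lower direction and lack of overlap thus add no support to these counts. The summed level of the 10 markers was 393 to 960 CPM in the controls and 212 to 277 CPM in MIRI. Eng, a co-receptor for TGF-beta family ligands and the most abundant of them in MIRI, stood at 197, 252 and 269 CPM in the controls and 137, 211 and 199 CPM in MIRI, so its groups overlapped, as did those of Ptprb. Pecam1, an endothelial adhesion molecule, stood at 74.8, 355 and 242 CPM in the controls and 19.1, 1.75 and 4.33 CPM in MIRI. Emcn was at 0 in each MIRI library, Tie1 was at 0 in MIRI 2, and Robo4 in MIRI 2 and MIRI 3.

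The order of the control libraries was not the same for these markers and Cav1. Control 1 had the lowest endothelial sum (393 CPM) and a Cav1 level of 1951 CPM, while control 3 had a sum of 785 CPM and the lowest control level of Cav1. The part of endothelial markers in the Cav1 values was not tested, and in bulk RNA fewer cells of a type and less RNA per cell cannot be told apart. For other caveolin-rich types the ranges of the groups met. The 5 measured smooth muscle and pericyte markers of 10 summed to 126 to 184 CPM in the controls and 143 to 193 CPM in MIRI, and the 2 measured adipocyte markers of 8 to 0.542 to 0.821 CPM and 0.677 to 2.19 CPM.

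Epithelial markers, for which Met is best known, were at most 5.38 CPM in sum. Of 11 listed, 5 had a row by position. The sum was 0.973 to 1.22 CPM in the controls and 0.542 to 5.38 CPM in MIRI, with MIRI 1 the highest library, where the keratin Krt8 gave 4.17 CPM and the cadherin Cdh1 1.08 CPM. In control 2, the library with the highest Met level, it was 1.1 CPM. The 3 measured macrophage markers of 8 summed to 85 to 133 CPM in the controls and 92.6 to 145 CPM in MIRI, with control 2 and MIRI 1 the lowest of their groups. The part of these markers in the Met values was not tested.

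**Figure D5:**
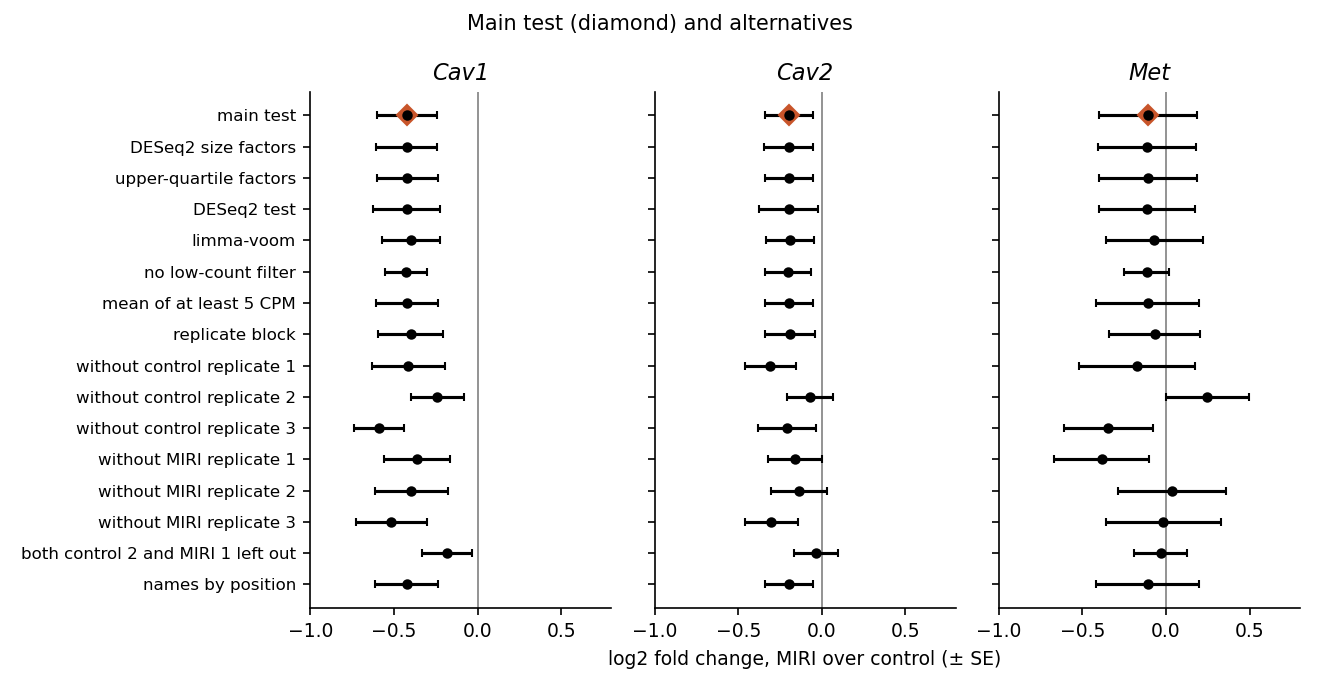
Log2 fold change of MIRI over control with its SE (horizontal axis) for Cav1, Cav2 and Met in the main test (diamond) and under 15 alternatives (vertical axis). Cav1 stays left of 0 in all of them, between -0.59 and -0.18, and Met lies on both sides of 0.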

How the data were processed

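For 6 mouse libraries the authors deposited raw counts, 1 row per gene name, made per the file headers with featureCounts 2.0.1 on exons, requiring both mates, dropping chimeric pairs and ignoring strand. The submitters' processing notes list Bowtie 0.12.2, mm8 and mm9; for these counts the aligner and build are not given in the sources used here. All 6 sample files equal the series table in its 53509 rows. FPKM columns were not used. Rows were laid over GENCODE M21 exons (GRCm38) with bedtools 2.31.1. A row was in place with at least 95% of its length on its own gene, and named by position with at least 80% of the overlapped exon bases, and 50 bp, on 1 gene. That named 14919 rows. Rows, and separately genes by position, were compared with edgeR 4.0.16 (TMM, filterByExpr, quasi-likelihood test, group only, Benjamini-Hochberg, threshold 0.05) in R 4.3.3, and the code was tested on simulated data. List genes named are those with a mean of at least 10 CPM or an unadjusted p under 0.05, plus Cavin4, Ehd3 and the marker genes, chosen after their values were seen. Genes alike in pattern are the 5 with the highest r per member. Members and lists were chosen with earlier results of these data known. Alternatives were DESeq2 1.42.0, limma-voom (limma 3.58.1), other scalings, filters, namings, a replicate block and leaving out libraries.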

Additional observations from a re-analysis of the deposited data

How the results depend on the processing

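Cav1, Cav2 and Met stayed past no threshold under each of 15 alternatives, of which leaving out both control 2 and MIRI 1 was chosen after seeing the data. The log2 fold change of Cav1 ranged from -0.59 to -0.24 without 1 library, and that of Cav2 from -0.31 to -0.07, both lower throughout. Met ranged from -0.39 to 0.25, with the higher sign without control 2 (0.25) and without MIRI 2 (0.04), and the cause was not tested. The nearest approach was Cav1 without a low-count filter (adjusted p = 0.0575 by edgeR). The 0 calls over all rows became 8 higher and 77 lower with the DESeq2 test, 124 and 231 without a low-count filter, and 1 higher and 0 lower without both control 2 and MIRI 1, while with any 1 library left out there were 0 higher and between 0 and 31 lower calls (31 without control 1). The causes were not tested. Neither list had a call in any setting. The caveola median ranged from -0.14 to 0.02 without 1 library, and was 0.04 with deposited names and -0.20 for rows in place only. The replicate numbers showed no pairing of the libraries (correlations of same-numbered deviations of -0.15, -0.27 and 0.15), though so few values cannot exclude one. A replicate block gave 0 calls and log2 fold changes of -0.40, -0.19 and -0.07 for Cav1, Cav2 and Met. At these depths 0 counts allow up to 0.324 to 0.437 CPM.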
